A study of Mus musculus with 4 samples.

Results

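Annotated microRNA genes were followed in neutrophils of curdlan-treated SKG mice with and without Mif, the gene of a secreted pro-inflammatory cytokine. The group was every gene whose symbol begins with Mir or Mirlet followed by a digit, leaving out the long host transcripts whose symbols end in hg. It held 1185 of the 47729 genes in the deposited table, each with 1 transcript, and 1178 of them carry the type miRNA in the GENCODE M21 annotation. The other 7 have another small-RNA type. All mice were BALB/c SKG animals, which carry a Zap70 mutation, and all had received curdlan, a beta-glucan that sets off arthritis in this strain, 8 weeks earlier. The 2 groups were wild type and Mif KO (Mif -/-), with 2 libraries each, and no group without curdlan was analysed here. Neutrophils were sorted by FACS from bone marrow and spleen, in proportions that the labels do not give. The labels do not say whether the libraries of a genotype came from separate animals, so the p-values measure the spread between these libraries, which may be technical.

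MicroRNAs are made from long primary transcripts. The nuclear enzyme Drosha with its partner Dgcr8 cuts out a hairpin, exportin-5 (Xpo5) carries it to the cytoplasm, Dicer1 trims it to a short duplex, and an Argonaute protein takes up 1 strand and uses its seed, bases 2 to 8, to find target messages. Many hairpins lie in introns of protein-coding genes, and some, the mirtrons, use a splice site as 1 of their ends and need no Drosha cut at that end. miR-223 and miR-142 are known as abundant microRNAs of neutrophils and of blood cells at large. The libraries were made from total RNA with the rRNA removed and read as 100 bp pairs. Mature microRNAs are shorter than such reads, so the values below are read as signal of precursor or host RNA and not as levels of mature microRNA.

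The hairpins of 4 genes show the places in which microRNA genes lie. Mir7062 and Mir6989 lie in short introns and end exactly where the intron ends. Mir142 lies inside a longer intron of a noncoding host, and Mir223 overlaps an exon of one. The sequences are RefSeq hairpins on GRCm38.p6, 5′ to 3′, with the mature strands in capitals.
Mir7062, chr7:139986809-139986874, minus strand: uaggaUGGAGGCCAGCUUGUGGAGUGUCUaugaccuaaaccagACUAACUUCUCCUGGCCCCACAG
Mir6989, chr19:6346480-6346544, plus strand: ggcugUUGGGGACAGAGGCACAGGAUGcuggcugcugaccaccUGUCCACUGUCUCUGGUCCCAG
Mir142, chr11:87756864-87756927, plus strand: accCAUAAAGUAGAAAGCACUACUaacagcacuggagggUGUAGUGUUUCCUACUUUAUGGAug
Mir223, chrX:96242817-96242926, plus strand: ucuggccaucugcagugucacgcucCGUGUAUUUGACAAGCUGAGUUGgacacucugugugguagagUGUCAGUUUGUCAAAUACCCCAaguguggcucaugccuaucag
Both intronic hairpins that reach the intron's end close with AG, the letters of a 3′ splice site. RefSeq gave an entry for 1027 of the 1185 genes and a hairpin for 963. Of 438 intronic genes with a hairpin, 154 ended exactly at the intron's 3′ end, and all 154 ended in AG. Of the other 284 intronic hairpins 16, or 5.63%, ended in AG, beside 24.2% of all hairpins. A hairpin that ends with its intron has to carry the intron's last letters, so the AG describes this class and is no separate measurement. Only 14 hairpins began at the intron's 5′ end, and 11 filled the intron from end to end.

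The mature sequences of the genes that the results below turn on follow, from the same tables, with the seed in capitals. They are shown because they are the products that a reader would look for, and because families are defined by the seed.
miR-223-3p: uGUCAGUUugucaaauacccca
miR-142a-3p: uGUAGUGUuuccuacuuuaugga
miR-142a-5p: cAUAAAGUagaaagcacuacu
miR-142b: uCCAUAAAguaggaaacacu
miR-21a-5p: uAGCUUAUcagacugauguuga
miR-23a-3p: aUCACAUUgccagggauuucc
miR-27a-3p: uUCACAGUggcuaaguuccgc
miR-24-3p: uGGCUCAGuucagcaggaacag
let-7g-5p: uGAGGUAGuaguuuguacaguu
miR-15a-5p: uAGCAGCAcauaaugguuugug
miR-16-5p: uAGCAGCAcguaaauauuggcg
miR-1955-5p: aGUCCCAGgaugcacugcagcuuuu
miR-1931: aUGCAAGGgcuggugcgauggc
miR-7578: cAUGGCUCugucuucugccucaga
miR-7678-3p: uUUCCUUAcuuucucuuguagc
miR-3058-5p: uCAGCCACggcuuaccuggaaga
miR-6996-3p: cGGUGUCUcuggucacucugcag
miR-15a and miR-16 share the seed AGCAGCA, and 11 of the 12 let-7 genes with an entry share the seed GAGGUAG. Among the 103 of 115 genes at a testable level that have an entry, few shared a seed. Their 169 mature sequences had 167 distinct seeds, and 2 seeds were shared by a pair of genes each. Mir7023 and Mir7068 share CACCCUG, and Mir7048 and Mir7077 share CUUCCAU.

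Most microRNA genes were at or near 0. FPKM, fragments per kilobase of transcript scaled to library size, is a share of each library. Of the 1185 genes, 580 were listed at 0 in all 4 libraries and 379 were above 0 in all 4. A value of 1 FPKM was reached by 105 and 112 genes in wild-type libraries 1 and 2 and by 82 and 93 genes in knockout libraries 1 and 2. Their FPKM summed to 497 and 637.4 in the wild type and 375.9 and 417.3 in the knockout. These sums were 0.0924% and 0.121% of all FPKM in the wild type and 0.0664% and 0.0751% in the knockout, so the microRNA genes took the larger share in both wild-type libraries.

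The depth behind these values differed by genotype. In other genes with 1 exon and 1 transcript, low values multiplied by gene length gathered at a common step, and the step size put the knockout libraries at 5.28 and 4.75 times the depth of wild-type library 2, with wild-type library 1 at 1.23 times. For a gene of 80 nt, close to the median length of 81 nt, 1 step was worth 0.226 and 0.277 FPKM in the wild type and 0.0525 and 0.0584 FPKM in the knockout. Values near 1 FPKM in a wild-type library therefore rest on few steps. Of the 1185 genes, 175 reached 1 step at their own length in every library. Run names in the labels give lane 2 for the wild type and lane 1 for the knockout, so genotype, lane and depth cannot be told apart. Mif, which checks the labels, stood at 0.882 and 2.88 FPKM in the wild type and was listed at 0 in both knockout libraries. Neutrophil markers summed to 114300 and 109600 FPKM in the wild type and 108000 and 109000 FPKM in the knockout, and 10 of 12 of them reached 1 FPKM. Of these 10, Ly6g passed the test described below, higher in the knockout. Macrophage and monocyte markers summed to between 47.0 and 63.7 FPKM, T cell markers, nearly all of it Cd3d with Trac at 0, to at most 72.4 FPKM, and erythroid markers to 3.12 and 13.0 FPKM in the wild type and 10.8 and 11.1 FPKM in the knockout. B and plasma cell markers summed to 195.8 and 158.7 FPKM in the wild type and 35.6 and 41.3 FPKM in the knockout, the 3 of 7 that were tested (Igkc, Ighm and Jchain) were lower in the knockout at an adjusted p under 0.05 in limma, and Ms4a1 stayed below 0.1 FPKM. In these bulk samples fewer cells of a type and less RNA per cell cannot be told apart, and the part of these transcripts in the microRNA results was not tested.

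The level of a microRNA gene went with its place in a host gene. By the annotation, 570 microRNA genes lay in an intron of a gene on the same strand and 254 overlapped an exon of one. A further 116 lay on the opposite strand of a gene only, and 245 outside other genes. Any overlap with an exon of any host transcript counted, also of transcripts that keep an intron. A gene called exonic may therefore lie partly or wholly in an intron of other transcripts of its host. A mean of at least 1 FPKM was reached by 85 intronic genes (14.9%), 11 exonic genes (4.33%), 4 opposite-strand genes (3.45%) and 6 genes outside others (2.45%). Intronic genes had a median of 0.0585 FPKM with hosts at a median of 1.42 FPKM, whereas exonic genes had a median of 0.00063 FPKM although their hosts stood higher, at a median of 2.67 FPKM. Among intronic genes the share at 1 FPKM or more followed the host. It was 0 of 234 in hosts under 1 FPKM, 10 of 188 in hosts from 1 to 10 FPKM, 64 of 127 in hosts from 10 to 100 FPKM, and 11 of 17 in hosts above 100 FPKM. The matching counts for exonic genes were 0 of 99, 2 of 62, 4 of 64 and 5 of 13. The median exonic gene in a host above 100 FPKM stood at 0.0028 FPKM and the median intronic one at 2.57 FPKM. These are descriptions over genes, which are not replicates. In the exonic case the host's exon and the hairpin share at least some bases, and how many was not measured.

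**Figure D1:**
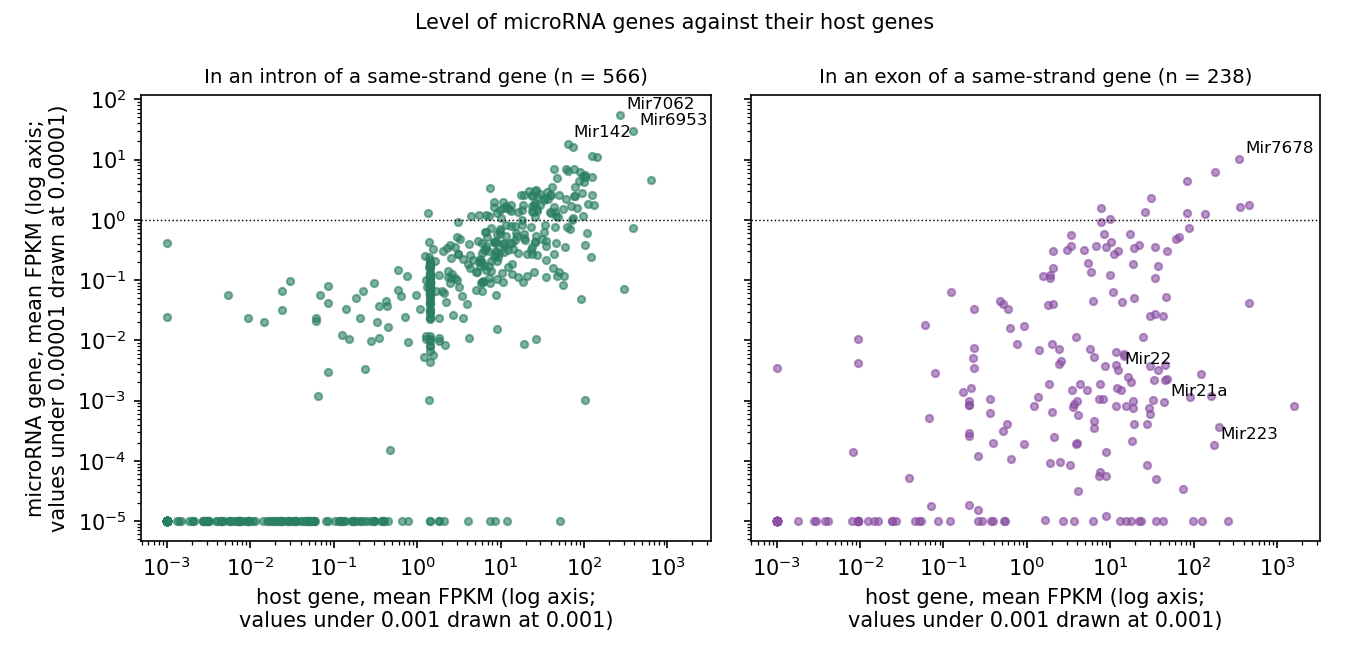
Mean FPKM over the 4 libraries of each microRNA gene (vertical axis) against its host gene (horizontal axis), both on log axes, for intronic (left) and exonic (right) genes whose host is in the table; the dotted line is 1 FPKM. Intronic genes climb with their host, with 64 of 127 at 1 FPKM or more in hosts from 10 to 100 FPKM, whereas exonic genes such as Mir223, Mir21a and Mir22 lie far below hosts of the same level.

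A column of points in the plot of host levels belongs to 1 host. Sfmbt2, a Polycomb-group gene, holds 71 intronic microRNA genes of the Mir297, Mir466, Mir467 and Mir669 families, many of them near-identical copies between which reads can be split, so single values there are uncertain. Sfmbt2 itself stood at 1.56 and 1.89 FPKM in the wild type and 1.04 and 1.21 FPKM in the knockout. None of the 71 reached a mean of 1 FPKM, the highest being 0.219 FPKM, and 2 were listed at 0 in all libraries. Their FPKM summed to 7.69 and 7.81 in the wild type and 3.62 and 3.45 in the knockout, lower in both knockout libraries. Without them, 85 of 499 intronic genes (17.0%) reached 1 FPKM.

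Hairpins that end at a splice site were also counted apart. By coordinates, 172 intronic microRNA genes ended at the intron's 3′ end, and 47 of them (27.3%) reached a mean of 1 FPKM, compared with 38 of the other 398 (9.55%). The 2 classes differed in more than the hairpin's end. The introns of the former had a median length of 461 nt and their hosts a median of 5.97 FPKM, and for the latter these were 16090 nt and 1.42 FPKM. By intron length, 13 of 65 genes in introns under 200 nt (20%) reached 1 FPKM, 36 of 155 in introns from 200 nt to under 2000 nt (23.2%), and 36 of 350 in longer introns (10.3%). Hairpin GC content was close between the genes tested for genotype (median 53.6%) and the others (51.4%).

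Mir7062 was the highest microRNA gene, at 52.1 and 70.7 FPKM in the wild type and 45.3 and 48.9 FPKM in the knockout. It lies in an 84-nt intron of Adam8, a metalloprotease of leukocyte surfaces, and starts 18 nt from the 5′ splice site. Adam8 stood at 271.9, 312.7, 247.3 and 262.0 FPKM in the same order, so both the hairpin and the host were lower in each knockout library than in each wild-type library. The log2 difference (knockout minus wild type, of FPKM + 1) was -0.36 ± 0.16 (SE, n = 2 against 2 libraries, limma adjusted p = 0.328) for Mir7062 and -0.20 ± 0.09 (adjusted p = 0.359) for Adam8.

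Mir6953, in an 81-nt intron of Grina, a membrane protein of the TMBIM family, stood at 23.9 and 38.5 FPKM in the wild type and 27.9 and 28.2 FPKM in the knockout. Both knockout values lay between the wild-type values. Mir6989, in a 77-nt intron of the kinase gene Map4k2, stood at 10.8 and 18.0 FPKM against 7.74 and 9.92 FPKM, and Map4k2 at 105.9 and 176.2 against 110.1 and 109.9 FPKM. The knockout libraries lay below the wild-type libraries for the hairpin but not for the host. Mir6996, in a 215-nt intron of the receptor gene Notch1, stood at 17.6 and 17.9 FPKM in the wild type and 13.7 and 14.5 FPKM in the knockout (-0.32 ± 0.08 on the log2 scale, limma adjusted p = 0.160). Its wild-type libraries nearly coincided, and the groups did not overlap.

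Mir142 was the highest of the well-known myeloid microRNA genes, at 14.9 and 25.3 FPKM in the wild type and 14.3 and 18.7 FPKM in the knockout. It lies in a 1425-nt intron of Mir142hg, which stood at 46.4, 97.0, 50.3 and 60.9 FPKM. Gene and host were both highest in wild-type library 2, and the groups overlapped (Mir142: -0.24 ± 0.27, limma adjusted p = 0.690). Mir142b, annotated on the opposite strand over the same bases (chr11:87756841-87756955), was listed at 0 and 14.1 FPKM in the wild type and 8.06 and 0 FPKM in the knockout. Whether counting used the strand is not stated, and reads of Mir142 and Mir142b may not have been told apart. Their sum was 14.9 and 39.5 FPKM in the wild type and 22.4 and 18.7 FPKM in the knockout.

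Mir3058 and Mir7678 completed the genes above 10 FPKM. Mir3058, deep in an 11065-nt intron of the phosphohydrolase gene Nudt4, stood at 12.6 FPKM in each wild-type library, with knockout values of 8.64 and 9.63 FPKM (-0.42 ± 0.08, limma adjusted p = 0.134), while Nudt4 stood at 135.0, 140.7, 141.1 and 152.2 FPKM. Mir7678 (chr2:164354313-164354383) was the highest gene of the exonic class and overlaps, at least in part, an exon of Slpi, which encodes a protease inhibitor secreted by leukocytes. It stood at 11.6 and 15.7 FPKM in the wild type and 6.18 and 7.55 FPKM in the knockout (-0.89 ± 0.17, adjusted p = 0.127), whereas Slpi stood between 332.3 and 365.6 FPKM in all 4 libraries.

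The remaining 5 of the 12 highest genes were intronic. Mir7048 (in Dedd2, a death-effector-domain gene), Mir7059 (in Cln3, a lysosomal membrane protein gene), Mir5125 (in Srrm2, a splicing factor gene) and Mir6973a (in Ltb, lymphotoxin beta) stood between 4.11 and 10.6 FPKM over all libraries. In these 4 genes wild-type library 2 was the highest library and wild-type library 1 the lowest, by as little as 6.10 against 6.13 FPKM in Mir7059, so the knockout values lay inside the wild-type range. Mir1962, in a 63348-nt intron of the phosphatase gene Ptpre, differed in this. It stood at 7.37 and 9.59 FPKM in the wild type and 4.37 and 4.41 FPKM in the knockout (-0.80 ± 0.13, limma adjusted p = 0.118), with Ptpre at 64.8, 72.5, 59.1 and 61.4 FPKM.

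**Figure D2:**
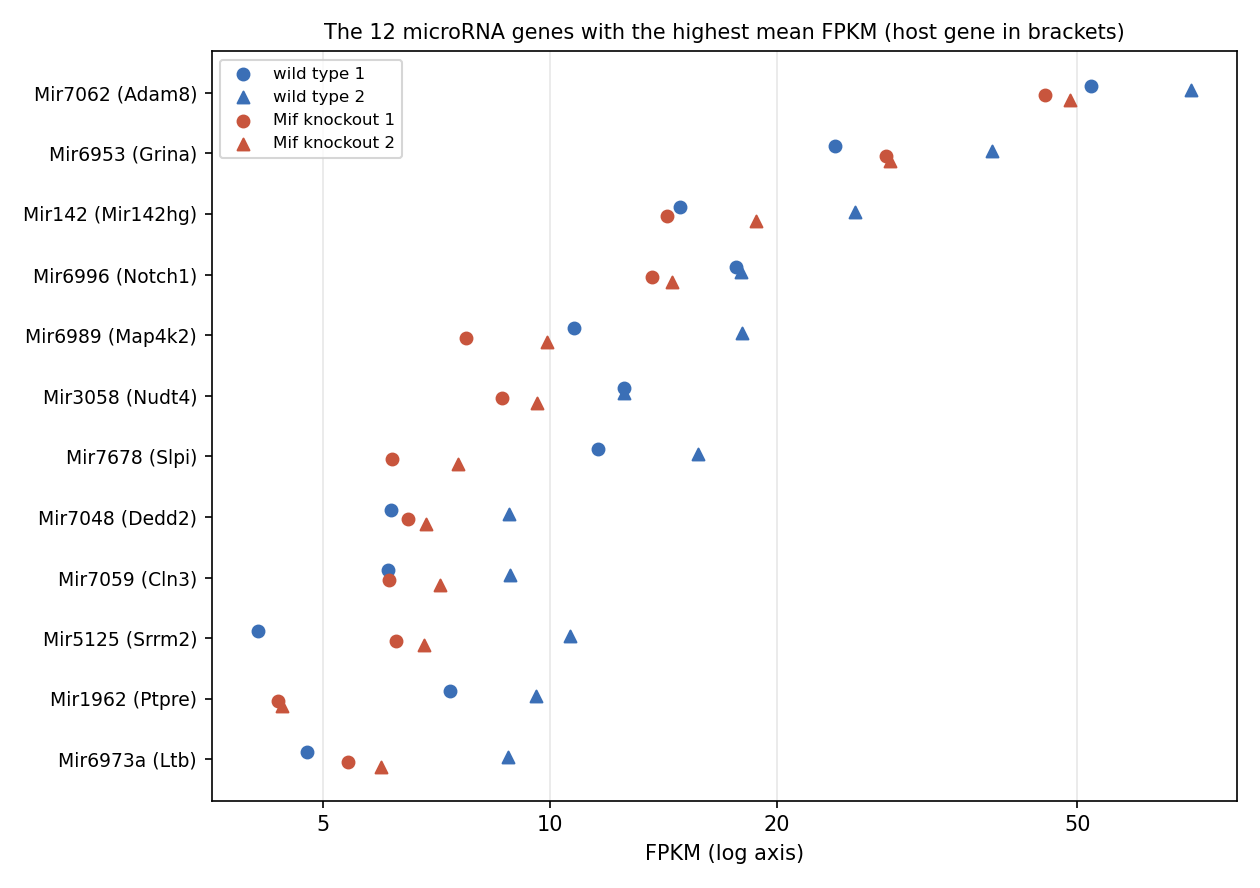
FPKM in each library (horizontal log axis) of the 12 microRNA genes with the highest mean, host gene in brackets; blue marks are wild type, red marks Mif knockout, circles replicate 1 and triangles replicate 2. Wild-type library 2 is the highest library, or level with it, in every gene, and wild-type library 1 falls among or below the knockout libraries in Mir6953, Mir142, Mir7048, Mir7059, Mir5125 and Mir6973a.

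The microRNAs best known in myeloid cells were mostly not seen as hairpin signal. Of 28 such genes 13 were listed at 0 in all libraries and 6 reached 1 FPKM in any. Mir223 stood at 0.000283 and 0.000325 FPKM in the wild type and 0.000068 and 0.000057 FPKM in the knockout, below 1 step in each. Its host transcript F630028O10Rik stood at 140.2 and 230.3 FPKM in the wild type and 161.7 and 175.4 FPKM in the knockout, with overlapping groups (-0.09 ± 0.24, limma adjusted p = 0.866). A value below 1 step can be a fractional share of reads that the quantification gave to the host, which was not tested, so it does not show that reads over the hairpin are absent. This holds for the other exonic genes with values below 1 step as well.

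Mir21a and Mir22 were also listed far below their hosts. Mir21a, known for its role in inflammation and cancer, stood at 0.00136, 0.00175, 0.000291 and 0.000329 FPKM in an exon of the autophagy gene Vmp1 (27.4, 70.2, 37.2 and 43.3 FPKM). Mir22, in an exon of Mir22hg (from 9.89 to 15.3 FPKM), stood between 0.00115 and 0.00599 FPKM. Mir155, which immune activation is known to induce, and Mir155hg were listed at 0 in all libraries. Mir146, known to dampen innate signalling, reached 0.0314 FPKM in knockout library 2 and was listed at 0 in the others, and Mir146b stood between 0.0233 and 0.152 FPKM.

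The Mir23a, Mir27a and Mir24-2 cluster on chromosome 8, known for favouring myeloid over lymphoid fate, was the myeloid locus outside any annotated host that could be measured. Mir27a stood at 2.11 and 4.74 FPKM in the wild type and 2.00 and 3.19 FPKM in the knockout. Mir23a stood at 1.61 and 3.37 FPKM against 0.876 and 2.06 FPKM, and Mir24-2 at 0.906 and 2.31 FPKM against 0.923 and 1.62 FPKM. In each of the 3, replicate 2 was above replicate 1 in both genotypes and the groups overlapped, with log2 differences of -0.25 ± 0.33, -0.50 ± 0.34 and -0.16 ± 0.31 (limma adjusted p of 0.728, 0.498 and 0.814). Mir147, which Toll-like receptor signals are known to induce, lies in an exon of AA467197 and stood at 1.29 and 1.30 FPKM against 0.843 and 1.56 FPKM, with the knockout libraries on either side of the wild type. All 6 tested genes of the myeloid list had a negative difference, with a median of -0.24, and 0 passed.

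Families that act in growth and the cell cycle had no gene at 1 FPKM. None of the 12 let-7 genes, which restrain growth, reached 1 FPKM in any library, and 5 were listed at 0 throughout. Mirlet7g, in the gene Wdr82, reached 0.310 FPKM in wild-type library 2 and stood at 0.0495, 0.105 and 0 FPKM in the others. None of the 15 genes of the proliferation-linked miR-17 clusters reached 1 FPKM. Mir17hg, host of Mir17, Mir18, Mir19a, Mir20a, Mir19b-1 and Mir92-1, stood at 0.0522 and 0.480 FPKM in the wild type and 0.122 and 0.159 FPKM in the knockout. Mir106b, Mir93 and Mir25 lie in Mcm7, which stood at 7.16 and 7.57 FPKM against 10.2 and 10.7 FPKM (0.45 ± 0.08, limma adjusted p = 0.123). The rest of the 15 lay outside other genes. Of 6 genes of the miR-15 and miR-16 clusters, known for restraining the cell cycle and survival, Mir15a came nearest, at 0.849 and 0.919 FPKM in the wild type and 0.542 and 0.995 FPKM in the knockout. Its host Dleu2 stood at 37.9 and 40.5 FPKM against 28.3 and 31.1 FPKM, with no overlap (-0.39 ± 0.09, limma adjusted p = 0.146). The same was seen in genes typical of other cells. None of 7 erythroid and platelet, 10 lymphoid, and 19 muscle, liver, brain and epithelial microRNA genes reached 1 FPKM, and 3, 7 and 17 of them were listed at 0 in all libraries.

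Between genotypes the measurable microRNA genes leaned towards lower values in the knockout, but none passed the test. A gene was tested where its mean reached 1 FPKM in either genotype, and it passed where limma's p, adjusted after Benjamini and Hochberg over all 10221 genes tested, was under 0.05. Of the 1185 microRNA genes 115 were tested and 1070 were not. Of the 115, 0 passed, where 0.342% of all genes tested did (35 genes) and 0.186% did so with a lower knockout level, and the lowest adjusted p was 0.0717. At an unadjusted p under 0.05, 40 of the 115 were lower in the knockout (34.8%) and 0 higher, beside 9.56% lower and 8.35% higher over all genes tested. The difference was negative in 108 of 115 genes (93.9%), beside 45.8% of all genes. Both knockout libraries lay below both wild-type libraries in 63 genes (54.8%), beside 23.1%, and above them in 3 genes (2.61%), beside 29.6%, and in 49 the groups overlapped. A difference of -0.4 or lower was seen in 59 genes (51.3%), beside 7.39% of all genes. The median log2 difference was -0.41, with quartiles of -0.59 and -0.19, and over all genes tested it was 0.02. Of the 115 genes, 24 met the filter through the wild-type mean only and 3 through the knockout mean only, so a lower knockout value was built into 24 of them. Among the 88 that met it in both genotypes, 84 had a negative difference and the median was -0.37.

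Libraries of 1 genotype also differed from each other. Among the 115 genes, the log2 difference of wild-type library 2 from library 1 had a median of 0.24 and an SD over genes of 0.70, beside 0.04 and 0.34 over all genes tested. For the knockout libraries the median was 0.12 and the SD 0.40, beside 0.05 and 0.15. Taken in pairs, knockout library 1 was below wild-type library 1 in 95 of the 115 genes and below wild-type library 2 in 104. Knockout library 2 was below them in 75 and 100. The median pairwise differences ran from -0.22 to -0.52.

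Nearly all of the lean was absent under 1 setting. With the differences corrected for exon length and GC content, a setting chosen after seeing the data, the median was -0.016 and 62 of 115 genes were negative. The microRNA genes are at the short end of the lengths on which that correction is fitted, so a median near 0 follows in part from the correction itself. Mir7062, Mir6996 and Mir142 were among the genes whose difference turned positive with it, at 0.0785, 0.046 and 0.25. Leaving out a wild-type library also moved signs. The difference was negative in 107 of 118 tested microRNA genes without wild-type library 1 and in 86 of 113 without wild-type library 2. Genes that passed in those fits were not counted by direction. Without wild-type library 1, 86 of 118 tested microRNA genes passed, and without wild-type library 2, 69 of 113 did. In those fits 2675 of 10301 genes (26%) and 2938 of 10219 genes (28.8%) passed over the whole table, the remaining wild-type library being assumed to vary like the knockout libraries, which were closer to each other.

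**Figure D3:**
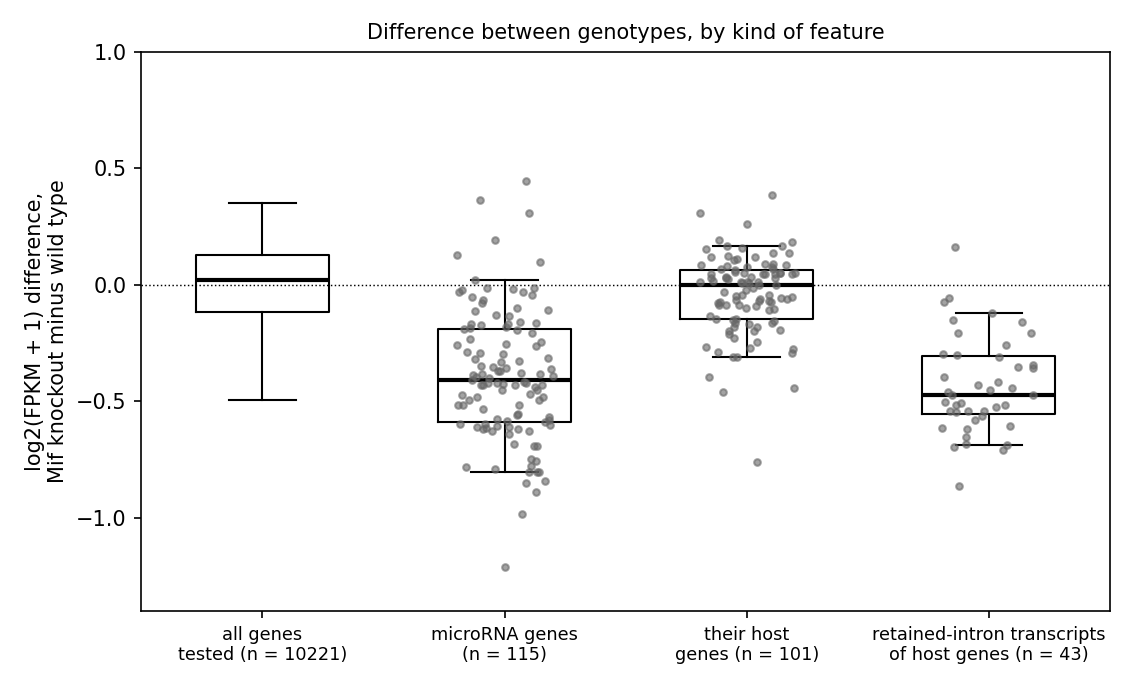
Log2 difference of FPKM + 1, knockout minus wild type, for all genes tested, the microRNA genes tested, their host genes and the retained-intron transcripts of those hosts; boxes show quartiles and median, whiskers the 5th to 95th percentile, and points single genes. The microRNA genes (median -0.41) and the retained-intron transcripts (median -0.48) lie below 0, and the host genes (median 0.00) lie around it.

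The 6 microRNA genes with the largest negative differences and no overlap between groups were Mir7578, Mir7678, Mir1931, Mir1955, Mir7077 and Mir1962. Mir7578 (chr2:27450549-27450630) overlaps, at least in part, an exon of the bromodomain gene Brd3. Mir7578 stood at 3.32 and 3.43 FPKM in the wild type and 1.54 and 0.923 FPKM in the knockout (-0.99 ± 0.16, limma adjusted p = 0.113). Brd3 itself stood between 30.6 and 32.2 FPKM in all 4 libraries. Mir1955 (chr2:92191977-92192074), in a 14103-nt intron of the histone-reader gene Phf21a, stood at 3.54 and 3.97 FPKM against 1.604 and 1.693 FPKM, and had the lowest adjusted p of all microRNA genes (-0.84 ± 0.10, adjusted p = 0.0717). Its host was also lower in both knockout libraries, with Phf21a at 34.0 and 34.8 FPKM against 23.5 and 26.0 FPKM (-0.46 ± 0.08, adjusted p = 0.126).

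Mir1931 (chr10:93162785-93162903), in a 46971-nt intron of the kinase gene Cdk17, stood at 2.83 and 2.27 FPKM in the wild type and 0.805 and 1.12 FPKM in the knockout (-0.85 ± 0.14, limma adjusted p = 0.118). It met the filter through the wild-type mean only, so a lower knockout value was built into its selection. Cdk17 stood at 19.2 and 21.4 FPKM against 15.7 and 17.1 FPKM, a smaller difference in the same direction (-0.29 ± 0.09, adjusted p = 0.215). Mir7077, at the end of an 803-nt intron of the adaptor gene Cmip, stood at 4.54 and 2.44 FPKM against 2.05 and 1.04 FPKM (-0.81 ± 0.30, adjusted p = 0.270), with Cmip between 75.5 and 79.7 FPKM throughout. In Mir7077 the gap between the wild-type libraries was larger than that between the nearest libraries of the 2 genotypes.

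Of the 115 tested microRNA genes, 3 had both knockout libraries above both wild-type libraries. Of these, Mir6956 and Mir1932 met the filter through the knockout mean only, so a higher knockout value was built into their selection. Mir6956, which ends with a 77-nt intron of Triobp, an actin-binding protein gene, stood at 0.483 and 1.18 FPKM in the wild type and 1.46 and 1.44 FPKM in the knockout (0.45 ± 0.20, limma adjusted p = 0.342), and Triobp at 84.7 and 92.4 FPKM against 106.4 and 106.0 FPKM (0.26 ± 0.08, adjusted p = 0.194). Host and hairpin were therefore both higher in each knockout library. Mir1932, outside other genes, stood at 0.546 and 0.825 FPKM against 1.01 and 1.33 FPKM (0.36 ± 0.14, adjusted p = 0.289). Mir1938, in an intron of Ifrd1, an interferon-related regulator gene, stood at 1.87 and 2.29 FPKM against 3.15 and 2.49 FPKM (0.31 ± 0.13, adjusted p = 0.321), with Ifrd1 at 26.6 and 22.5 FPKM against 22.5 and 23.3 FPKM.

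**Figure D4:**
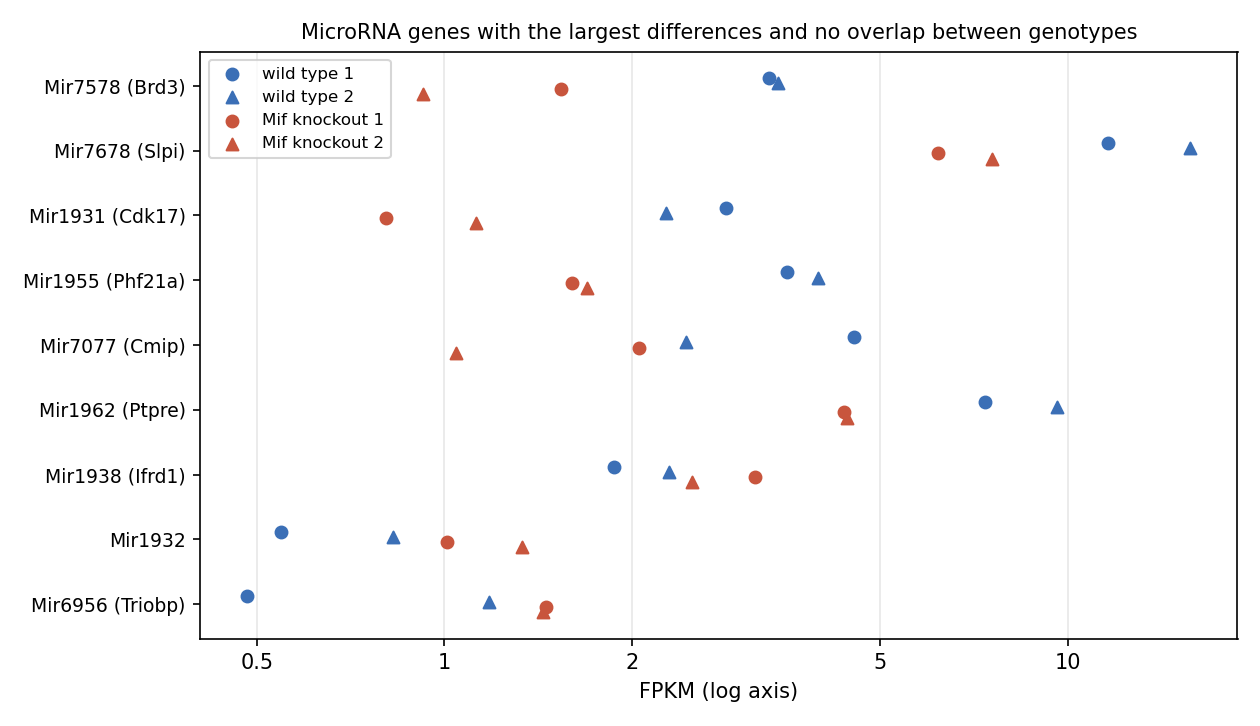
FPKM in each library (horizontal log axis) of the microRNA genes with the largest differences and no overlap between genotypes, 6 lower and 3 higher in the knockout, host gene in brackets; marks as in the plot of the 12 highest genes. The values lie between 0.483 and 15.7 FPKM, and none of the 9 genes passed the test.

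The host genes were centred near 0. A host on the same strand was annotated for 103 of the 115 tested genes, with 101 distinct hosts, and Arap3 and Cmip held 2 each. The host genes had a median log2 difference of 0.00, 52 of 101 were negative (51.5%, beside 45.8% of all genes), and 0 passed (lowest limma adjusted p = 0.118). At an unadjusted p under 0.05, 8 were lower (7.92%, beside 9.56%) and 3 higher (2.97%, beside 8.35%). Without wild-type library 1, 21 hosts passed (20.8%, beside 26% of all genes in that fit), and without wild-type library 2, 24 did (23.8%, beside 28.8%). The microRNA gene's difference was below its host's in 89 of 103 pairs. A microRNA gene stood at a median of 6.75% of its host's FPKM, from 0.388% to 94.9%. By place, the median difference was -0.42 for 91 intronic genes (86 negative), -0.41 for 12 exonic genes (11 negative), -0.33 for 5 opposite-strand genes (5 negative) and -0.25 for 7 genes outside others (6 negative).

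Intron-retaining transcripts of the hosts had negative differences as well. Of the 101 hosts, 43 had annotated retained-intron transcripts that were tested. Of these 42 had a negative difference, with a median of -0.48, and 0 passed, where 0.26% of all 2304 genes tested in this way did. At an unadjusted p under 0.05, 17 of the 43 were lower, beside 27% of the 2304. The lean was general, since 87.5% of the 2304 were negative, with a median of -0.32. For Adam8 the retained-intron transcripts stood at 119.6 and 145.0 FPKM in the wild type and 95.9 and 110.0 FPKM in the knockout. For Srrm2, host of Mir5125, they stood at 21.1 and 19.4 FPKM against 11.7 and 12.3 FPKM, and for Notch1 at 4.23 and 5.04 FPKM against 2.83 and 3.03 FPKM. In these 3 hosts, picked as examples, both knockout libraries lay below both wild-type libraries. Among the other hosts of the 12 highest genes with such transcripts, this also held for Dedd2 and Cln3. The groups overlapped for Map4k2 (73.1 and 117.5 against 65.1 and 79.7 FPKM) and Ltb (7.049 and 9.64 against 7.046 and 7.98 FPKM). The share without overlap was not counted over the 43 hosts or the 2304 genes.

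Several other annotated gene types leaned the same way, and protein-coding genes did not. The median difference was -0.35 for 93 snoRNA genes, -0.42 for 75 snRNA genes, -0.47 for 45 sense-intronic genes and -0.48 for 280 unconfirmed (TEC) genes, beside -0.19 for 114 lincRNA genes and 0.04 for 8453 protein-coding genes. After the correction for length and GC content these medians were -0.01, -0.07, -0.39, -0.47, -0.16 and 0.01. The median exon lengths were 133 nt for snoRNA and 151 nt for snRNA genes, and 1420 nt for sense-intronic and 2220 nt for TEC genes, beside 73 nt for the microRNA genes. The short classes lie at the short end of the fitted lengths, so their medians near 0 follow in part from the correction and do not set length apart from the kind of gene. In the main fit, the share lower at an unadjusted limma p under 0.05 was 34.8% for the microRNA genes. It was 39.8% for snoRNA, 53.3% for snRNA, 66.7% for sense-intronic, 72.1% for TEC, 27.2% for lincRNA and 4.08% for protein-coding genes. Both knockout libraries lay below both wild-type libraries in 58.1%, 73.3%, 97.8%, 87.9%, 47.4% and 16.5% of these types, in the same order, beside 54.8%.

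Of 37 genes that make and use microRNAs 33 were tested, and none passed. Of the processing genes, 16 were tested (9 with a positive and 7 with a negative difference), and of the silencing genes 17 (5 and 12). Over the 33, 6 had an unadjusted p under 0.05, or 18.2%, beside 17.9% of all genes tested, and the median difference was -0.05. Without wild-type library 1, 7 of them passed (21.2%, beside 26% of all genes in that fit), and without wild-type library 2, 12 did (36.4%, beside 28.8%). Drosha stood at 0.915 and 0.815 FPKM in the wild type and 0.929 and 0.922 FPKM in the knockout, just under the filter. Dgcr8 (3.45, 3.94, 3.57 and 3.37 FPKM), Xpo5 (4.05, 4.26, 4.14 and 4.35 FPKM) and Dicer1 (3.17, 2.39, 2.92 and 3.17 FPKM) stood below Ago2 in every library. Ago2, the Argonaute that can cut its targets, stood at 34.9, 24.9, 27.0 and 28.2 FPKM, with the groups overlapping.

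The machinery genes with the lowest p in each direction did not overlap between genotypes, which a choice by p favours. Of the 33 tested, 7 had both knockout libraries below both wild-type libraries (21.2%, beside 23.1% of all genes tested). In 6 both knockout libraries lay above both wild-type libraries (18.2%, beside 29.6%). Khsrp, an RNA-binding protein that promotes processing of some precursors, stood at 15.9 and 17.4 FPKM in the wild type and 22.7 and 21.8 FPKM in the knockout (0.40 ± 0.08, limma adjusted p = 0.135). Prkra, a Dicer partner, stood at 3.26 and 3.85 FPKM against 4.91 and 5.19 FPKM (0.41, adjusted p = 0.160). Hsp90ab1, a chaperone that helps to load Argonaute, stood at 89.7 and 87.1 FPKM against 70.7 and 72.8 FPKM (-0.30, adjusted p = 0.157). Cnot7, a deadenylase of the silencing complex, stood at 26.2 and 25.8 FPKM against 22.0 and 22.1 FPKM (-0.23, adjusted p = 0.203).

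The authors' deposited table gave the same count per transcript. It holds a q-value for 605 microRNA transcripts, and 0 of them were under 0.05, beside 45 of 65729 transcripts in all. Of the 605 transcripts in the authors' deposited table, 69 had a p-value under 0.05, or 11.4%, beside 11.1% of all transcripts with a p-value. A fold below 1 was listed for 59 of the 69. The matching share over all transcripts was not counted, so the direction has no background here.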

How the data were processed

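Total RNA of 4 neutrophil libraries (2 wild type, 2 Mif KO) was sequenced from 50 ng inputs with RNA integrity averaging 9.99, per the labels' protocols. The authors deposited an FPKM column for each library and, beside them, a fold (linear ratio) and a p-value with its q-value for each transcript, per the file headers. The submitters' processing notes name StringTie 2.1.4, HISAT2 2.1.0, R 3.6.1, SAMtools 1.9 and the build GRCm38. The annotation release, filters and strand setting were not given in the sources used here.

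FPKM was summed per gene identifier and tested as log2(FPKM + 1), which understates differences of low genes, with limma 3.58.1 (R 4.3.3, trended empirical Bayes, no covariates) on 2 against 2 libraries. Tested genes averaged 1 FPKM or more in 1 genotype at least, and passed when the p, adjusted by the Benjamini-Hochberg method, was under 0.05. The main limma fit alone was tried on simulated data. These had the same spread in every library, so the unequal depth was not simulated. Without counts no counting interval is given; relative depth came from the steps of low values, and an exact 0 is given as listed at 0. Places, introns and types came from GENCODE M21, sequences from RefSeq. The members and lists were chosen with earlier results of these data known. Named were the 12 highest genes, per direction up to 6 with the largest non-overlapping difference, members of the fixed lists at 1 FPKM or above, their hosts, and core machinery genes with the 2 of lowest p per direction; genes of the lists under 1 FPKM were named as examples after their values were seen. Alternatives varied pseudocount, filter, scaling, moderation, replicate block and libraries left out; length and GC correction and a knockout-mean filter were added after seeing the data.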

Additional observations from a re-analysis of the deposited data

How the results depend on the processing

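With 2 libraries a genotype, the limits are the spread of the wild-type libraries and the shallow wild-type depth, at which 1 step of a hairpin-sized gene is a sizeable part of 1 FPKM. The count of microRNA genes that passed stayed at 0 in every setting that kept all 4 libraries, and ranged from 0 to 86 with 1 library left out (0 to 24 for host genes, 0 to 12 for machinery genes, 0 to 2938 for all genes). The high counts came without either wild-type library. Over all genes, 35 passed as reported, 21 with a pseudocount of 10, 0 with no filter, 7 with a mean of at least 10 FPKM, 16 with upper quartile scaling, 21 with quantile normalization, 15 when scaled without 7SL and 7SK RNA, and 12 with the length and GC correction. The median log2 difference of the microRNA genes, -0.41 as reported, was -0.60 with a pseudocount of 0.1, -0.10 with a pseudocount of 10, -0.036 with no filter, -0.016 with the length and GC correction, and -0.54 to -0.33 with 1 library left out. With the knockout-mean filter it was -0.36.

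Of 24 named microRNA genes, 11 changed sign under the length and GC correction: Mir7062 (0.0785), Mir6953 (0.13), Mir142 (0.25), Mir6996 (0.046), Mir7048 (0.29), Mir7059 (0.33), Mir5125 (0.35), Mir6973a (0.18), Mir27a (0.033), Mir24-2 (0.042) and Mir147 (0.38). With 1 library left out, 10 had differences of either sign: Mir6953 (-0.44 to 0.23), Mir142 (-0.60 to 0.13), Mir7048 (-0.36 to 0.10), Mir7059 (-0.37 to 0.10), Mir5125 (-0.63 to 0.56), Mir6973a (-0.55 to 0.21), Mir142b (-2.33 to 1.59), Mir27a (-0.69 to 0.19), Mir24-2 (-0.56 to 0.24) and Mir147 (-0.32 to 0.16). The positive ends came without wild-type library 2, except for Mir147, where it came without knockout library 1. Without knockout library 1, Mir5125 (0.021) and Mir24-2 (0.061) also changed sign, and without knockout library 2, Mir142b (1.22) did. The cause was not tested. Without wild-type library 2, 9 of the 24 had the opposite sign to the main fit. The pseudocount, filter, scaling and moderation settings changed no sign or call among the 24 where the gene was tested. The labels give replicate numbers but do not say whether same-numbered libraries belong together. The replicate deviations of the genotypes correlated at 0.0065 over genes, which cannot settle this. Among the 115 tested microRNA genes, replicate 2 was above replicate 1 in 75 in the wild type and 86 in the knockout. With the replicate block, 0 microRNA genes passed and 34 genes passed over the whole table.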

Other observations

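Mir6236, which lies outside other genes on chromosome 9 and was picked out after its values were seen, had the lowest difference of all tested microRNA genes (-1.21 ± 1.01, limma adjusted p = 0.568). It stood at 8.96 and 0.149 FPKM in wild-type libraries 1 and 2 and 0.396 and 0.525 FPKM in the knockout, so the difference, and its passing of the filter, rest on wild-type library 1.

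Of 9 noncoding transcripts listed as microRNA hosts, of which Mirt1 and Mirt2 are not known as hosts, 5 were tested (Mir142hg, Mir22hg, Dleu2, Mirt1 and Mirt2), all 5 had a negative difference, with a median of -0.32, and 0 passed in limma. Mirt1 stood at 25.4 and 36.7 FPKM in the wild type and 18.7 and 22.3 FPKM in the knockout (adjusted p = 0.250), with no overlap. Mirt2 stood at 63.0 and 85.8 FPKM against 63.9 and 74.2 FPKM, with overlap. Lin28a, which encodes a protein that blocks let-7 processing, was listed at 61.5, 54.8, 53.6 and 55.3 FPKM, and its relative Lin28b at 0 in all libraries.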
